A study of Xenopus laevis with 42 samples.

Results

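Maternal messages lasting past gastrula are transcripts that the egg of the frog Xenopus laevis hands to the embryo, that were still plentiful at gastrula, and that were scarce by mid neurula. They were chosen in tissue descended from D1, a dorsal-animal blastomere of the 8-cell embryo whose descendants contribute to the neural plate. A row of the progeny table was a member when it had at least 20 TPM at 8-cell and at least 0.5 of that level at gastrula, and when its TPM + 1 at mid neurula was at least 8-fold below that at 8-cell. TPM is a transcript abundance per length, scaled to a fixed total. A row at exactly 0 at mid neurula with over 1000 TPM before was left out, which removed 1 row. The rule found 171 members among 44962 rows, or 2.26% of the 7580 rows with at least 20 TPM at 8-cell in progeny. Of those 7580 rows 53.2% kept 0.5 of their level at gastrula and 16.8% fell 8-fold by mid neurula. The same 171 rows were then read in the explant table, which the rule did not use.

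An explant was a D1 blastomere taken out of the embryo and kept apart from it, and progeny were the fluorescent descendants of a D1 blastomere that had been filled with dye and left in place. Both were sampled at 7 stages: the 8-cell, 16-cell and 32-cell embryo, then blastula and gastrula, then early and mid neurula. These are Nieuwkoop-Faber stages 4, 5, 6, 8, 11, 14 and 17. The labels put these at 2 hours 15 minutes, 2 hours 45 minutes, 3 hours, 5 hours, 11 hours, 16 hours and 18 hours. There were 42 samples in 14 groups of 3, numbered by frog, and no genotype, strain or added agent other than the dye is named. For the last stage the titles and the abbreviated descriptions of the samples differ, and the name in the titles is used. The deposited tables hold 1 pooled TPM column per group, so no value has a replicate check, no test was possible and the depth is unknown. A row was called changed or different at 2-fold, a difference of 1 in log2(TPM + 1).

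The frog egg is loaded with messenger RNA that runs the cleavage divisions, since the embryo's own genes stay largely silent until the blastula. Much of this store is then destroyed as zygotic transcription begins, partly by deadenylation, the shortening of the poly(A) tail, and partly by factors that the embryo itself makes. Messages that outlast this first wave are still present while the germ layers form. A level in these tables cannot tell an old message from one made anew, and in bulk samples fewer cells of a type and less RNA per cell cannot be told apart.

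The explant 8-cell column stood apart. Over 26351 rows reaching 1 TPM in any column, the median log2 difference of explant minus progeny was -0.085 at 8-cell and 0 at 16-cell. Of the 171 members, 4 were 2-fold lower in explants at 16-cell and 13 at 8-cell. These counts stood beside 0.58% and 2.96% of rows with 20 TPM or more at 8-cell in progeny. That minimum favours lower explant values at 8-cell. The row ephx4.S was at 59.9 TPM in the 16-cell explant but at 0.131 TPM in the 8-cell explant. The main counts over all members that rest on that column are therefore also given with the explant 16-cell column as the early level. The reasons for missing the rule and the 8-fold counts per list rest on the explant 8-cell column alone. The row Xetrov90006585m.S was at or near 0 in every explant column, at most 0.0958 TPM, while the progeny columns to gastrula held 17.0 to 29.4 TPM. The labelled neural fate could be set against markers at the neurula stages: 13 rows of neural plate markers summed to 358 TPM in explants and 1241 TPM in progeny at mid neurula, and 14 rows of epidermal markers to 11771 and 7787 TPM.

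The rule sorts rows present at 8-cell by their levels at gastrula and mid neurula, whether the message is old or made anew. Of the 7580 rows with 20 TPM or more at 8-cell in progeny, 3859 kept 0.5 of their level at gastrula and did not fall 8-fold by mid neurula, and 1102 were under 0.5 at gastrula and fell 8-fold by mid neurula, called lost before gastrula here. Another 2447 were under 0.5 at gastrula without the 8-fold fall. The name lost before gastrula stands for a level under 0.5 at gastrula and not for absence. At gastrula those 1102 rows still summed to 43688 TPM in explants and 32221 TPM in progeny. At 8-cell the members' median was 51.9 TPM in explants and 60.1 TPM in progeny, against 94.4 and 99.96 TPM for the rows lost before gastrula. These 3 classes are set by the progeny values, so their distance there is a description and not a result.

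**Figure D1:**
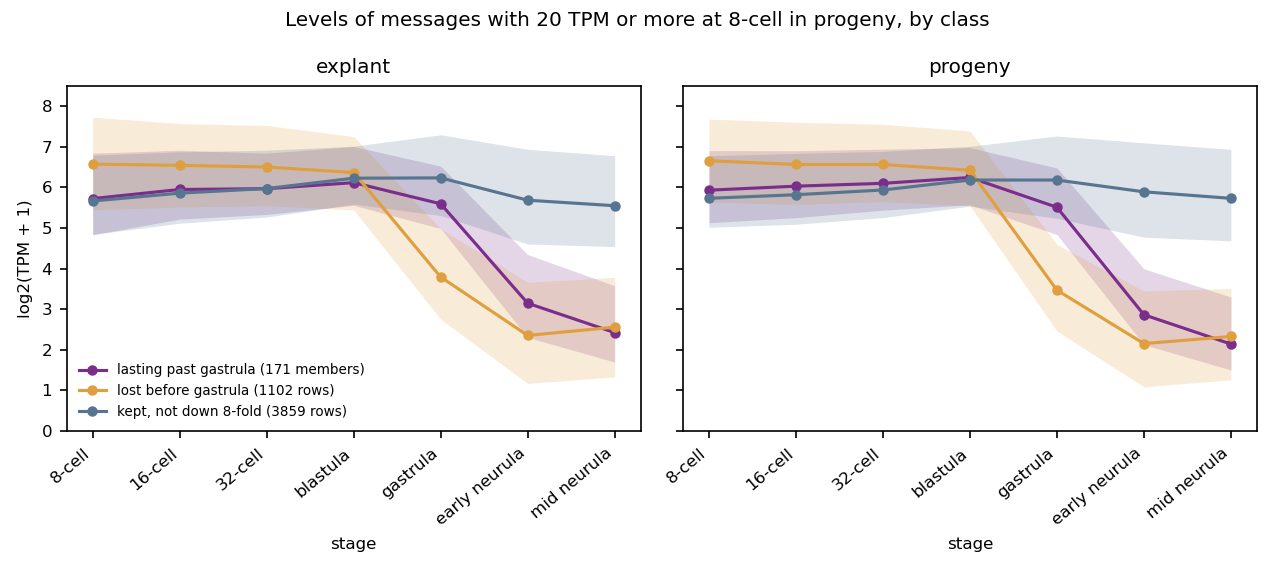
Median log2(TPM + 1) by stage for the members, the rows lost before gastrula and the rows kept without an 8-fold fall, in explants (left panel) and progeny (right panel), with bands from the first to the last quartile over rows. The members' median in explants was 6.12 at blastula, 5.60 at gastrula and 3.15 at early neurula, while the rows lost before gastrula had already come down to 3.79 at gastrula.

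The members stayed nearly level through cleavage, gave up a little by gastrula and lost most of their level between gastrula and early neurula. Their summed level was 23484, 23721, 22981, 21987, 17381, 4675 and 2861 TPM in explants over the 7 stages, in the order given above, which is also the order of every series of 7 values here. In progeny the sums were 23354, 23303, 23310, 22805, 17062, 3097 and 1776 TPM. The members thus made up 0.287% of the explant column at mid neurula against 2.35% at 8-cell, and 0.178% of the progeny column at mid neurula against 2.34% at 8-cell. The median member was at 51.9, 60.8, 61.7, 68.5, 47.4, 7.87 and 4.37 TPM in explants and at 60.1, 64.4, 67.7, 74.9, 44.6, 6.28 and 3.42 TPM in progeny.

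In explants, 24 of 171 members were 2-fold down from blastula to gastrula, where 43.3% of explant rows with 20 TPM or more at 8-cell were down. From gastrula to early neurula 167 members were 2-fold down, or 97.7%, where 34% of those rows were down. From early to mid neurula 41 were 2-fold down, against 1.31% of rows. The median log2 changes over these 3 intervals in explants were -0.46, -2.44 and -0.60. In progeny, where the ends of the course were fixed by the rule, 36, 171 and 38 members were down, beside 48.3%, 26.2% and 1.39% of rows, with medians of -0.59, -2.61 and -0.71. Early neurula was not part of the rule. Among members that fell 2-fold from gastrula to mid neurula, the median share of the log2 fall complete at early neurula was 80.2% in explants (166 members, quartiles 69.6% and 89.9%) and 79.0% in progeny (171 members, quartiles 69.8% and 90.6%). The labels put gastrula, early neurula and mid neurula at 11, 16 and 18 hours. Gastrula to early neurula was thus the longer interval, and no rate is read from these shares. The rows lost before gastrula had another order, with 1001 of 1102 down from blastula to gastrula in explants and 699 from gastrula to early neurula, and with 1049 and 636 in progeny.

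**Figure D2:**
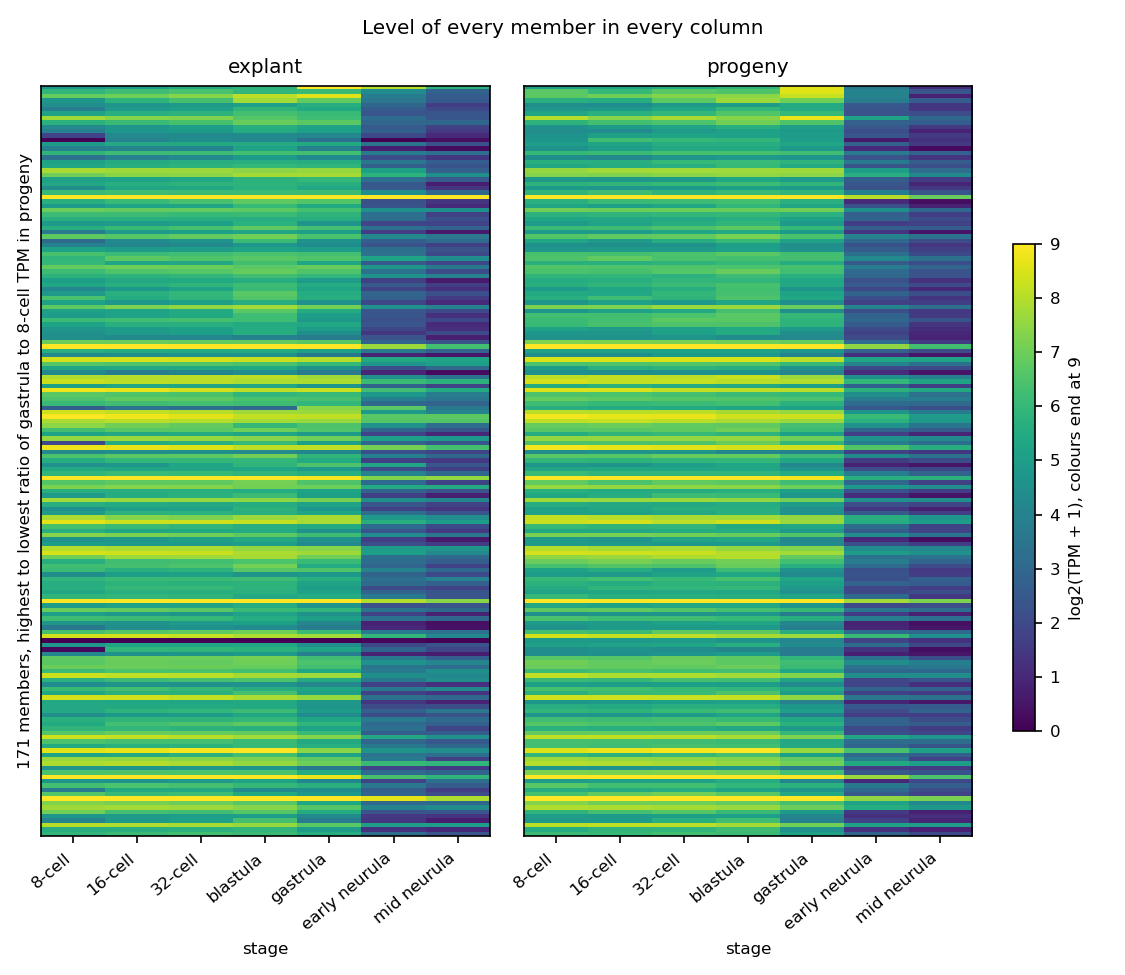
Log2(TPM + 1) of all 171 members at 7 stages in explants (left) and progeny (right), each line 1 member, sorted from the highest to the lowest ratio of gastrula to 8-cell TPM in progeny. The step to dark colours lies between gastrula and early neurula in both tissues, where 167 members were 2-fold down in explants and 171 in progeny, and 1 line is dark at every explant stage. Stages are drawn evenly spaced, though they are not evenly spaced in hours.

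Read in the explant table, most members kept their level at gastrula and fewer of them met the 8-fold fall. In explants 156 of 171 members, or 91.2%, kept 0.5 of their 8-cell level at gastrula, against 56.7% of explant rows with 20 TPM or more at 8-cell. The count was again 156 with the explant 16-cell column as the early level, where 57.6% of rows did so. The 8-fold fall by mid neurula was met by 103 members, or 60.2%, against 18.6% of those rows. With the explant 16-cell column in place of the 8-cell column, 121 members met it, or 70.8%, against 17.6% of rows. At least a 4-fold fall was found for 146 members, or for 157 from the 16-cell column. The median fold was 9.19 in explants, or 10.6 from the 16-cell column, and 11.98 in progeny. The rule set a floor of 8 in progeny alone, so a smaller fold in explants can follow from the choice of members and is not read as a difference of the tissues. The whole rule was met in explants by 81 members. They are 47.4% of the members and 44.5% of the 182 rows that the rule finds in the explant table, which are 2.59% of its rows with 20 TPM or more. With the explant 16-cell column the whole rule was met by 105 members, or 61.4%, against 2.83% of rows. Of the 90 members that missed it, 52 fell by less than 8-fold only, 14 were under 0.5 at gastrula only, 8 were under 20 TPM at 8-cell only and 16 missed on several counts. Of the rows lost before gastrula, 42 of 1102 met the whole rule in explants, read from the explant 8-cell column.

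Thresholds placed some near-equals on opposite sides. The members nearest the minimum level were gbp1.L, ephx4.S and eps8.S at 20.1, 20.3 and 20.6 TPM, and the rows just under it were bcap29.S and mogat2.2.L, both at 19.1, and ttc39b.S at 18.9. For the share kept at gastrula the edge ran between nudt5.S, acp1.S and zpd.L at 0.501, 0.504 and 0.509 and the rows cdipt.S, samm50.S and npm2.L at 0.499997, 0.499 and 0.493. For the fold by mid neurula it ran between gpx7.S, siae.S and prr13-like.L at 8.05, 8.07 and 8.09 and the rows man2b1.L, akap8.L and ctsb.S at 7.95, 7.94 and 7.86. All of these are progeny values used by the rule.

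The 5 most abundant members at 8-cell in progeny were eif1.L, ctsb.L, gmnn.S, gad1.2.L and rrm2.1.L, of which gad1.2.L is described with the rows that differed between the tissues. The message of eif1.L, an initiation factor that helps the ribosome select the start codon, read 2537, 2493, 2241, 1818, 1297, 399.6 and 238 TPM in explants and 2386, 2181, 2102, 1813, 1231, 179.5 and 146 TPM in progeny. Each value was below the one before it in both tissues, the 8-fold fall was met in both, and early neurula was the 1 stage at which the tissues were 2-fold apart, higher in explants. Cathepsin B, a cysteine protease of the lysosome, gave for ctsb.L 1489.9, 1251, 1146, 852, 904, 250.2 and 168 TPM in explants and 1371, 1162, 1089, 959, 829, 216 and 148 TPM in progeny. The 2 courses nearly overlay each other, with no stage 2-fold apart.

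Geminin, which blocks the licensing of replication origins until mitosis is over, was represented by gmnn.S with 1078, 1488, 1469, 1449.7, 421, 82.4 and 58.3 TPM in explants and 1104, 1312, 1219.7, 1380.2, 583, 201 and 88.9 TPM in progeny. Its explant level at gastrula was 0.391 of that at 8-cell, under the 0.5 required, and at early neurula it was 2-fold lower in explants. The small subunit of ribonucleotide reductase, the enzyme that makes the building blocks of DNA, read 2192, 1491, 1323, 1168, 791, 201 and 78.1 TPM for rrm2.1.L in explants and 914, 1118, 967, 870.2, 706, 179.8 and 76.5 TPM in progeny. It was 2-fold higher in the explant 8-cell column and within 2-fold at the other 6 stages. Other members of the replication and repair list were mcm6.L, part of the replicative helicase, msh3.L of mismatch repair and tp53bp1.L, a factor of double-strand break repair. The list held 4 members among 94 rows, or 4.26%, beside 2.26% of all rows with 20 TPM or more. All 4 fell 8-fold in explants, as did 60.2% of all members.

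**Figure D3:**
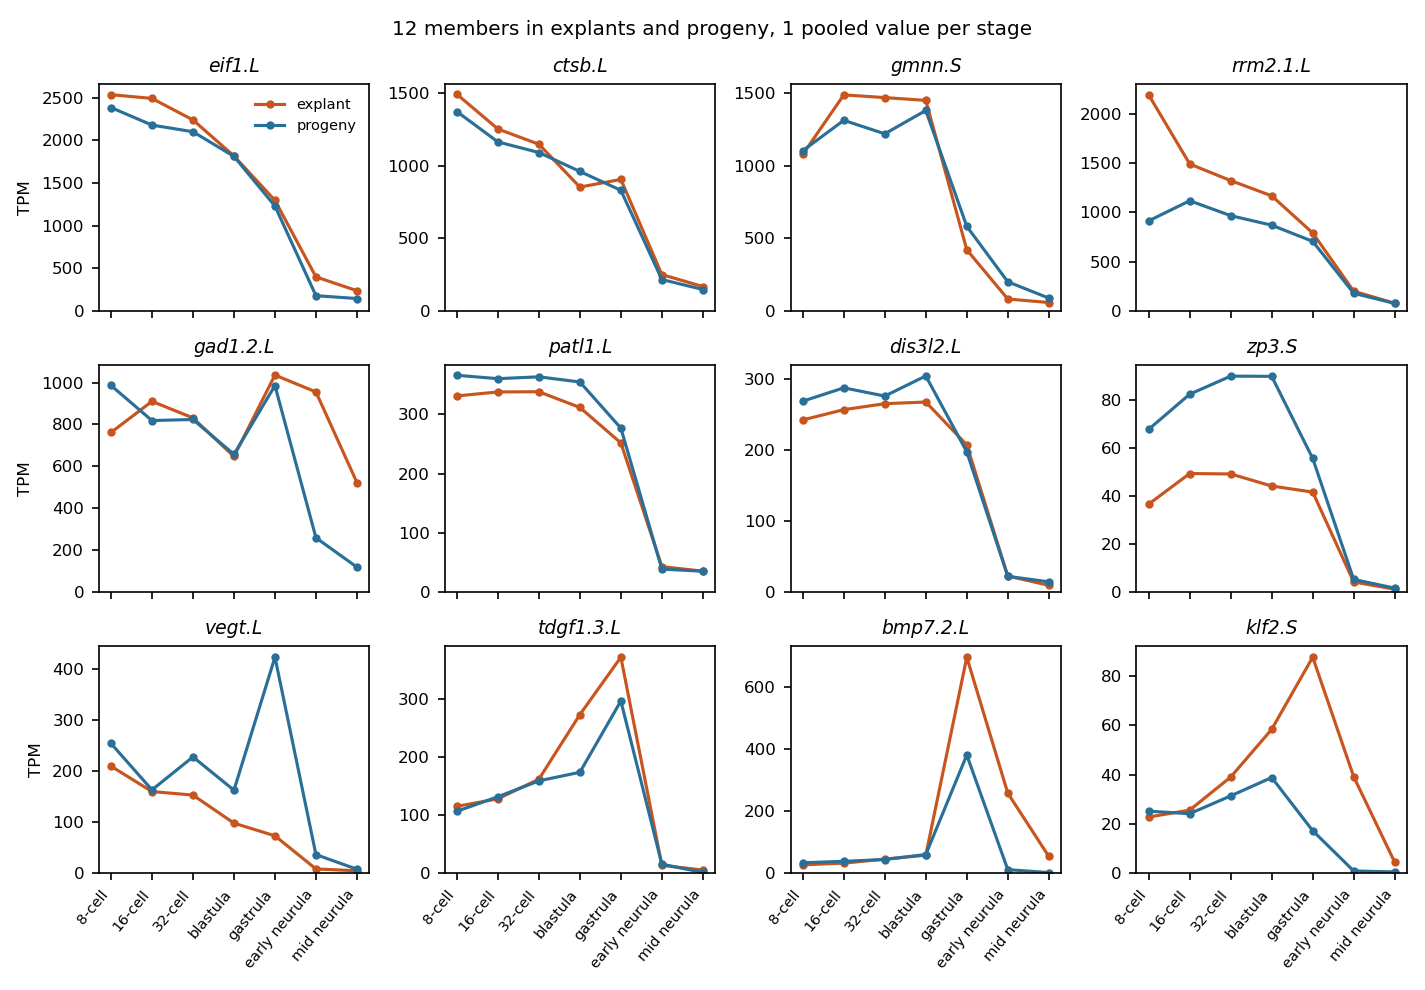
TPM of 12 members by stage, explants in orange and progeny in blue, 1 pooled value per point, with a scale of its own in each panel. The courses of eif1.L, ctsb.L, patl1.L and dis3l2.L run close together in both tissues to gastrula and drop by early neurula. In contrast, gad1.2.L stayed at 955 TPM in early neurula explants against 259 TPM in progeny. At gastrula vegt.L was at 72.8 TPM in explants against 423 TPM in progeny.

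Among regulators of RNA, the members included parts of the decay machinery. The protein Patl1 links shortened messages to decapping, and patl1.L read 331, 338, 338, 312, 252, 42.8 and 35.1 TPM in explants and 366, 360.4, 364, 355, 277, 38.7 and 35.0 TPM in progeny. The exonuclease Dis3l2 degrades RNAs carrying a uridine tail, and its L copy read 242, 257, 265, 268, 207, 22.5 and 9.32 TPM in explants and 269, 288, 276, 304, 197, 22.0 and 14.3 TPM in progeny. Its S copy, also a member, read 62.7, 38.1, 42.1, 76.7, 38.7, 4.78 and 2.77 TPM in explants and 51.8, 51.9, 56.2, 64.1, 46.8, 4.81 and 3.48 TPM in progeny. Both copies stood highest at blastula and were 2-fold down from gastrula to early neurula in either tissue. The decapping cofactor dcp1b.L read 54.0, 55.8, 59.8, 74.6, 61.3, 23.4 and 14.7 TPM in explants and 58.8, 60.1, 52.4, 71.5, 51.3, 7.17 and 3.99 TPM in progeny, and it was 2-fold higher in explants at both neurula stages. The RNA-binding protein gene caprin2.L peaked at blastula, at 103 TPM in explants and 79.9 TPM in progeny. Of 69 rows on the RNA decay list with 20 TPM or more, 3 were members, 40 were kept without an 8-fold fall and 9 were lost before gastrula. The members were 4.35% of that list, both dis3l2 copies included, beside 2.26% of all rows with 20 TPM or more. Of 58 on the list of translation control and RNA storage, 2 were members, or 3.45%, 36 were kept and 11 were lost before gastrula. Nothing is read from such small counts of members.

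The list of egg surface and oocyte proteins had the highest share of members of the 22 functional lists, 3 of 15 rows or 20%, beside 2.26% of all rows with 20 TPM or more. Zona pellucida proteins build the envelope around the oocyte, and 6 of their rows had 20 TPM or more at 8-cell, among them all 3 members of the list. All 6 kept 0.5 of their 8-cell level at gastrula and all 6 were 2-fold down from gastrula to early neurula, in explants as in progeny. From the 16-cell columns zpd.L fell short of 0.5 in both tissues. It was at 12.6 TPM at gastrula against 27.7 TPM at 16-cell in explants, and at 14.0 against 30.5 TPM in progeny. The member zp3.S read 36.5, 49.3, 49.1, 44.1, 41.5, 4.16 and 1.15 TPM in explants and 67.6, 82.2, 89.8, 89.7, 55.5, 5.21 and 1.58 TPM in progeny. Its explant level was the lower of the pair at every stage, and 2-fold so at blastula. The member zpd.L read 16.2, 27.7, 34.8, 81.3, 12.6, 1.61 and 0.589 TPM in explants and 27.6, 30.5, 49.0, 74.9, 14.0, 2.37 and 0.942 TPM in progeny, with its peak at blastula in both. The member zpax.L had the same peak, with 17.5, 26.5, 36.6, 66.2, 36.9, 2.63 and 1.39 TPM in explants and 28.4, 38.8, 50.4, 77.0, 24.0, 2.88 and 1.04 TPM in progeny. The rows zp2.L, zp4.L and zp4.S fell less from 8-cell to mid neurula, by 6.06-fold, 2.48-fold and 2.04-fold in explants and by 5.94-fold, 4.13-fold and 3.04-fold in progeny, and are not members. From gastrula to mid neurula the fall of all 6 rows lay between 8.27-fold and 19.8-fold in explants and between 7.74-fold and 21.9-fold in progeny. Of the 8 other oocyte rows on the list, among them the linker histone h1foo, the meiotic kinase mos and the growth factor gdf9, 3 were under 0.5 at gastrula in explants and 6 in progeny. These counts are read from the 8-cell columns. From the explant 16-cell column gdf9.S and wbp2nl.S also fell short, at 15.8 TPM against 40.4 TPM and at 22.5 TPM against 45.5 TPM. The last row of the list, zpr1.L, encodes a zinc finger protein that shares only the letters. The members and lists were picked with these data known, so these shares are descriptions.

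Some members gained level before they fell, and the ones that gained most encode regulators of the germ layers. In explants 22 members stood higher at gastrula than at blastula, or 12.9% beside 26.4% of rows, and in progeny 8, or 4.68% beside 23.2%. In explants 15 members were 2-fold up from 8-cell to gastrula, beside 11.7%, but from the explant 16-cell column only 4, beside 10.3%, and in progeny 5 were up, beside 10.7%. The highest were tdgf1.3.L, vegt.S and bmp7.2.L in progeny. BMP7 is a secreted signal that favours ventral and epidermal fate, and bmp7.2.L read 26.2, 31.6, 44.8, 57.1, 696, 258 and 53.4 TPM in explants and 32.9, 37.5, 43.3, 59.5, 381, 10.7 and 1.21 TPM in progeny. Its level stood highest at gastrula in both tissues, and at early and mid neurula it was higher in explants by 4.47 and 4.62 on the log2 scale. The EGF-CFC protein Tdgf1.3 is a co-receptor for Nodal ligands, and tdgf1.3.L read 115, 128, 162, 274, 373, 13.0 and 5.07 TPM in explants and 107, 132, 159, 174, 297, 15.1 and 0.783 TPM in progeny. Its 60.4-fold fall was the deepest of all members in progeny. The other copy, tdgf1.3.S, read 50.1, 65.9, 82.6, 108, 93.9, 3.70 and 1.67 TPM in explants and 51.3, 69.6, 70.8, 77.2, 50.9, 1.17 and 0.251 TPM in progeny, with no gain at gastrula in progeny. These 3 rows were the members among 32 on the TGF-beta and BMP list, or 9.38%, beside 2.26% of all rows with 20 TPM or more. They include both copies of tdgf1.3, and nothing is read from so small a count.

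VegT is a T-box transcription factor stored at the vegetal pole of the egg, needed for endoderm and mesoderm, and made again in the mesoderm of the gastrula. The copy vegt.L read 209, 159.6, 153, 97.7, 72.8, 7.79 and 4.28 TPM in explants and 254, 163, 228, 162, 423, 36.0 and 7.29 TPM in progeny. At gastrula the tissues parted by -2.52 on the log2 scale, the explant value being below each earlier explant value and the progeny value above each earlier progeny value. The copy vegt.S read 59.1, 74.1, 83.8, 61.7, 65.3, 19.1 and 6.26 TPM in explants and 103, 64.4, 103, 91.1, 377, 15.2 and 4.16 TPM in progeny, a difference of -2.51 at gastrula. By mid neurula both copies were within 2-fold between the tissues. Summed markers of endoderm at gastrula were 257 TPM in explants and 1237 TPM in progeny, with 15 of 16 rows lower in explants and none higher, and summed muscle markers were 8.22 and 245.0 TPM, with 6 of 18 rows lower. Their part in the vegt difference was not tested.

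A transcription factor of another family was higher in explants from gastrula on. The Kruppel-like factor klf2.S read 22.7, 25.5, 39.0, 58.4, 87.7, 39.1 and 4.37 TPM in explants and 25.1, 24.1, 31.3, 38.8, 17.2, 0.807 and 0.425 TPM in progeny. In explants klf2.S stood highest at gastrula and in progeny at blastula, and the difference was 2.29 at gastrula, then 4.47 at early and 1.91 at mid neurula. Its explant fall from gastrula to early neurula drops under 2-fold, to -0.85, with median-of-ratios scaling, which scales the columns to a common median ratio over rows.

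Fewer members were 2-fold apart between the tissues up to gastrula than at the neurula stages. The same held for all rows with 20 TPM or more at 8-cell in progeny, so it is not particular to the members. At 8-cell 2 members were 2-fold higher in explants and 13 lower, or 1.17% and 7.60%, where 0.937% of rows with 20 TPM or more at 8-cell in progeny were higher and 2.96% lower. At 16-cell 1 was higher and 4 lower, or 0.585% and 2.34% beside 0.264% and 0.58%, and at 32-cell the same counts stood beside 0.449% and 0.673%. At blastula 1 was higher and 5 lower, or 0.585% and 2.92% beside 0.251% and 0.607%. At gastrula 6 were higher and 7 lower, or 3.51% and 4.09% beside 1.56% and 0.897%. Over the wider set of rows reaching 1 TPM in any column, 2.2% were higher and 3.42% lower at gastrula. The shares of members were thus above those of rows with a like early level at these 5 stages, on counts of at most 13 members. The rule set a minimum progeny level at 8-cell and at gastrula, which favours lower explant values there. The rows Xelaev18030475m, Xetrov90006585m.S and Xetrov90016175m.S recur among the lower members at each stage from 8-cell to blastula. Nothing is therefore read from these shares.

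At early neurula 13 members were higher in explants and 7 lower, or 7.60% and 4.09%, beside 7.81% and 7.8% of rows with 20 TPM or more at 8-cell in progeny and 10.9% and 12.9% of rows reaching 1 TPM. At mid neurula 25 were higher, or 14.6%, beside 8.3% of rows with 20 TPM or more and 12% of rows reaching 1 TPM. There 2 were lower, or 1.17%, beside 6.65% and 13.6%. The rule took rows with a low progeny level at mid neurula, which favours higher over lower explant values there, so nothing is read from the balance of these counts. The median member differed by 0.17 at both neurula stages, and the median of rows with 20 TPM or more was -0.15 at early and -0.18 at mid neurula. The same choice of rows favours a higher median among members, so nothing is read from this contrast either. For rows well above 1 TPM, median-of-ratios scaling would shift the difference of explant and progeny by about 0.29 at 8-cell on the log2 scale. The shift would be about -0.09 at gastrula and 0.14 at each neurula stage. It differs for low rows, as for zpd.L, which went from -0.29 to -0.23 at mid neurula.

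Of the higher members, 11 were so at both neurula stages, and gad1.2.L was the most abundant of them. Glutamate decarboxylase makes the transmitter GABA, and gad1.2.L read 762, 911, 831, 647, 1036, 955 and 523 TPM in explants and 987, 819, 824, 657, 986, 259 and 118 TPM in progeny. The tissues were within 2-fold of each other up to gastrula, and its explant level at mid neurula was down only 1.46-fold from 8-cell, against 8.28-fold in progeny. Centrin, a calcium-binding protein of the centriole, gave for cetn3.S 584, 726, 681, 547, 464, 155 and 184 TPM in explants and 702, 912, 757, 647, 461, 48.8 and 53.6 TPM in progeny. Here too the courses parted after gastrula, by 1.64 at early and 1.76 at mid neurula. Also among the 11 were bmp7.2.L, klf2.S, dcp1b.L, tdgf1.3.S, acat1.L, a thiolase of the mitochondrion, pacsin2.L, which bends membranes, ephx4.S and a row without a symbol, Xelaev18030475m.

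Members higher at mid neurula alone included fxyd3.S, a regulator of the sodium pump, and cib1.L, a calcium-binding protein. The message of fxyd3.S read 490.0, 438, 383, 286, 282, 101 and 105 TPM in explants and 457, 404, 415, 329, 319, 68.0 and 29.3 TPM in progeny. That of cib1.L read 232, 269, 251, 217, 195, 95.4 and 96.2 TPM in explants and 281, 292, 268, 229, 196, 52.8 and 27.1 TPM in progeny. For both rows the explant values at mid and early neurula lay close together, while the progeny value was the lower at mid neurula. At mid neurula the difference was 1.80 for fxyd3.S and 1.79 for cib1.L. With median-of-ratios scaling the explant fall of cib1.L from gastrula to early neurula was -0.72, under 2-fold, as it was for krtcap3.L at -0.72 and serpinf2.L at -0.93.

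Marker levels moved between the tissues at the same stages. The 14 epidermal rows summed to 9218 TPM in explants and 4081 TPM in progeny at early neurula, with 11 rows higher in explants, 2 lower and 2 listed at 0 in explants. The 13 rows for ciliated cells and ionocytes summed to 1258 and 107 TPM at early neurula and to 1399 and 139 TPM at mid neurula, with 11 higher in explants at the later stage. Neural crest rows, 14 in all, summed to 141 TPM in explants and 648 TPM in progeny at mid neurula, and 12 were lower in explants. The 18 muscle rows summed to 301 and 11243 TPM, with 16 lower. The part of these marker differences in the members' differences was not tested.

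The 7 members lower in explants at early neurula were gmnn.S, vegt.L, arl5c.L, best2.L, rab40b.S and 2 rows without a symbol. Bestrophin 2 is an anion channel, and best2.L read 156, 142, 126, 100, 39.8, 7.63 and 7.13 TPM in explants and 159, 131, 129, 113, 81.7, 35.4 and 17.3 TPM in progeny. It was 2-fold lower in explants at gastrula and at both neurula stages. The small GTPase gene arl5c.L read 210.3, 215, 203, 162, 96.3, 15.4 and 19.4 TPM in explants and 240.4, 235, 217, 196, 123, 47.0 and 26.9 TPM in progeny, 2-fold lower in explants at early neurula. The splicing assembly factor gene smn2.S was 2-fold lower at gastrula alone, at 26.7 TPM in explants and 57.2 TPM in progeny. With best2.L, arl5c.L, gmnn.S, rrm2.1.L, vegt.L, acp1.S, haus1.L, hacd3.L and 6 further rows, smn2.S was among the 15 members that did not keep 0.5 of their level at gastrula in explants. From the explant 16-cell column 15 members also fell short, of which 10 fell short of both columns. The 5 that fell short of the 8-cell column alone, haus1.L, hacd3.L, rrm2.1.L, hacl1.L and a row without a symbol, kept 0.5 of the 16-cell level, with 0.531 for rrm2.1.L.

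**Figure D4:**
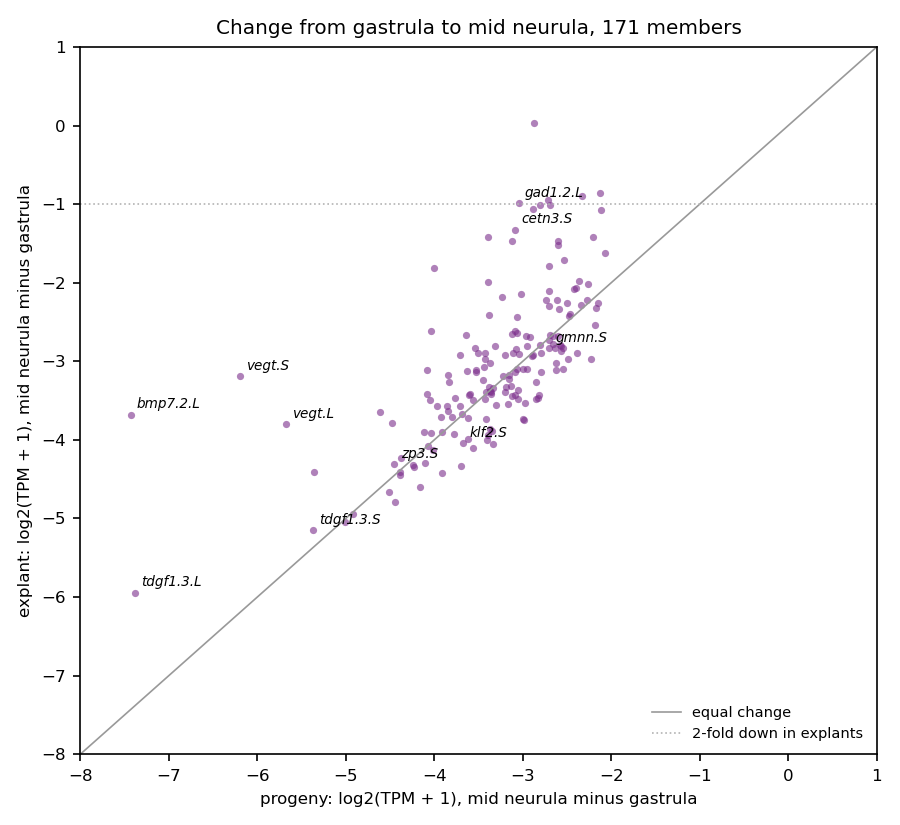
Change in log2(TPM + 1), mid neurula minus gastrula, for 171 members in explants (vertical axis) against progeny (horizontal axis), where the solid line marks equal change and the dotted line a 2-fold fall in explants. Of the members, 96 lie above the line of equal change, with the smaller fall in explants, and 5 lie above the dotted line. The rule asked for a deep fall in progeny alone, which favours points above the line, so nothing is read from the 96. Over all rows with 20 TPM or more at 8-cell in progeny the median change was -0.54 in explants and -0.27 in progeny.

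From gastrula to mid neurula 166 members were 2-fold down in explants, beside 35.3% of rows with 20 TPM or more at 8-cell, and the median change was -3.11. In progeny all 171 were down, beside 26.4%, with a median of -3.17, as the rule required most of that fall. The 5 exceptions in explants were gad1.2.L, hacd2.L, c1orf21.L, strn.L and Xetrov90006585m.S, the row near 0 in all explant columns. From gastrula to early neurula the 4 exceptions were gad1.2.L at -0.12, prr13-like.L at -0.94, Xelaev18030475m at -0.72 and Xetrov90006585m.S at 0.13. Of these, hacd2.L, c1orf21.L, strn.L, prr13-like.L and the 2 rows without a symbol were singled out after their values were seen.

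The list of membrane traffic and autophagy held the most members by number, 9 of 296 rows or 3.04%, beside 2.26% of all rows with 20 TPM or more. All 9 were 2-fold down from gastrula to early neurula in explants, and 4 met the 8-fold fall there. They include ap3s1.L, a subunit of an adaptor for lysosome-related vesicles, with 251, 228, 230.4, 185, 162, 29.9 and 24.9 TPM in explants and 246, 219.9, 232, 183, 156, 19.6 and 16.9 TPM in progeny. The retromer-associated sorting nexin snx2.L read 46.8, 60.8, 60.6, 61.3, 45.7, 2.22 and 1.80 TPM in explants and 60.1, 55.8, 59.4, 61.4, 41.4, 1.94 and 3.21 TPM in progeny, among the steepest drops after gastrula. The ESCRT ATPase vps4b.S, which ended at 45.8 TPM in explants and 20.3 TPM in progeny, was higher in explants at mid neurula.

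Of 285 rows for ubiquitin and proteolysis 5 were members, or 1.75%, also near the share of all rows, and all 5 fell 8-fold in explants. The ubiquitin ligase rnf34.L read 339.7, 321, 288, 231, 189, 9.01 and 6.83 TPM in explants and 326, 319, 300.0, 294, 181, 11.0 and 9.21 TPM in progeny, one of the 6 largest drops after gastrula in progeny. The scaffold of SCF ubiquitin ligases, cul1.L, read 212, 195, 192, 175, 143, 21.6 and 16.7 TPM in explants and 208, 195, 200.2, 186, 136, 22.2 and 21.2 TPM in progeny. For neither row were the tissues 2-fold apart at any stage. The others were uchl3.L, a deubiquitinating enzyme, herc4.S, a ligase, and kctd18.L.

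The lists for mitochondria and for kinases and phosphatases gave 3 members each, of 191 and 176 rows, or 1.57% and 1.70%. The mitochondrial ribosome genes mrpl44.S and mrpl11.S and sucla2.L, a citric acid cycle enzyme subunit, all fell 8-fold in explants. The kinase list held pip4k2c.S, prkar2b.S, a regulatory subunit of protein kinase A, and stk3.S, the Hippo pathway kinase. Of these, prkar2b.S alone fell 8-fold in explants from the 8-cell column, where stk3.S was 2-fold lower than in progeny. From the cytoskeleton list came haus1.L, an augmin subunit of the spindle, and tuba4.S, an alpha tubulin with 26.2, 54.8, 79.8, 217, 110.0, 10.9 and 4.90 TPM in explants and 49.9, 46.9, 105, 199, 128, 13.2 and 5.17 TPM in progeny. Its level stood highest at blastula in both tissues.

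Other lists held 1 member or 0, to be read against the 2.26% of all rows with 20 TPM or more. Splicing and RNA processing had 1 member of 240 rows, cwf19l1.L, while 215 rows were kept and 0 were lost before gastrula. Cell cycle and mitosis had 1 of 162, cdc23.L, a subunit of the anaphase-promoting complex, while 39 were lost before gastrula. Chromatin had 1 of 173, sirt4.L, which encodes a sirtuin of the mitochondrion despite its list. Zinc finger proteins had 0 of 76, Wnt signalling 0 of 45, nuclear pore and transport 0 of 75, and Notch and Hedgehog signalling 0 of 13. Germ plasm had 0 of 12 members, with 7 lost before gastrula. The list of FGF and MAPK signalling had 1 of 78, mapk11.S, and that of solute carriers and channels 1 of 169, kcnk7.L. At the share of all rows the lists for zinc finger proteins, nuclear pore, germ plasm and the signalling pathways of this paragraph would each hold fewer than 2 members, so nothing is read from their counts. Of all members 127 had a symbol, 48 were on at least 1 list, and 79 had a symbol but were on none.

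Xenopus laevis carries a long (L) and a short (S) subgenome, so most genes have 2 copies called homeologs. Of the members 104 were L rows, 49 were S rows and 18 had neither suffix, or 60.8%, 28.7% and 10.5%. Among all 7580 rows the shares were 53.02%, 39.7% and 7.28%. The difference was not tested. Homeologs are alike in sequence and the rule for sharing out their reads is not stated, so part of the level listed for one copy may belong to the other.

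In most pairs 1 copy alone met the rule. For 104 of the 153 members with a suffix the other copy had a row, and in 76 cases it reached 20 TPM at 8-cell in progeny. Of those 76 rows 12 were members too, or 15.8% beside 2.26% of all rows with 20 TPM or more, which makes 6 pairs: vegt, tdgf1.3, dis3l2, aldh7a1, an enzyme of lysine breakdown, and 2 pairs without a gene symbol. Of the other 64 copies, 30 were under 0.5 at gastrula, of which 17 fell 8-fold by mid neurula. The 34 that kept 0.5 were 2-fold to under 8-fold down in 28 cases and within 2-fold of their 8-cell level or above it in 6. Since the rule has sharp edges, near misses count here: ctsb.S, at 7.86-fold, fell almost as far as its member partner ctsb.L at 9.23-fold.

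Several pairs split, given as progeny values with the member first. The rule used progeny values of the member at 8-cell, gastrula and mid neurula, so these splits are descriptions. For lamp2, a protein of the lysosomal membrane, the S copy read 131, 115, 121, 106, 74.6, 21.1 and 13.9 TPM, and the L copy read 129, 107, 97.5, 29.1, 1.70, 1.26 and 2.55 TPM. The copies were level at 8-cell, whereas at gastrula lamp2.S was at 74.6 TPM and lamp2.L at 1.70 TPM. For gad1.2 the L copy is given above, and the S copy read 406, 341, 322, 255, 28.4, 7.84 and 7.05 TPM, already low at gastrula. For gmnn the L copy read 1109, 1163, 1095, 880.3, 199, 73.0 and 49.5 TPM, so that at gastrula the member was at 583 TPM and gmnn.L at 199 TPM.

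In progeny the partners of mapk11.S and dlgap5.L stood above the member at early and mid neurula. Those of klf2.S and eif1.L kept less than 0.5 of their 8-cell level at gastrula. The member mapk11.S, a p38 stress kinase gene, read 283, 288, 275, 229, 154, 38.6 and 25.5 TPM in progeny, whereas its partner mapk11.L read 93.1, 102, 86.8, 106, 98.6, 94.2 and 65.6 TPM. The member dlgap5.L, a spindle protein gene, read 37.8, 51.6, 61.3, 93.9, 64.9, 3.99 and 3.35 TPM, and its partner dlgap5.S read 36.2, 37.7, 57.5, 116, 249.9, 88.4 and 65.7 TPM, the only 1 of the 64 partners outside the rule at or above its 8-cell level at mid neurula. In explants dlgap5.S likewise stood highest at gastrula, at 282 TPM. The partner of klf2.S, klf2.L, was the more abundant copy at 8-cell and read 249, 242, 267, 256, 24.3, 0.775 and 0.513 TPM in progeny. At gastrula klf2.L kept 0.097 of its 8-cell level, under the 0.5 of the rule, but was still above klf2.S in TPM. For eif1 the S copy read 1881, 1691, 1562, 1269, 1054, 827 and 511 TPM in explants and 1746, 1545, 1388, 1258, 729, 192 and 152 TPM in progeny, and it missed the rule at gastrula. At early neurula the member and eif1.S were at 399.6 and 827 TPM in explants and at 179.5 and 192 TPM in progeny.

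**Figure D5:**
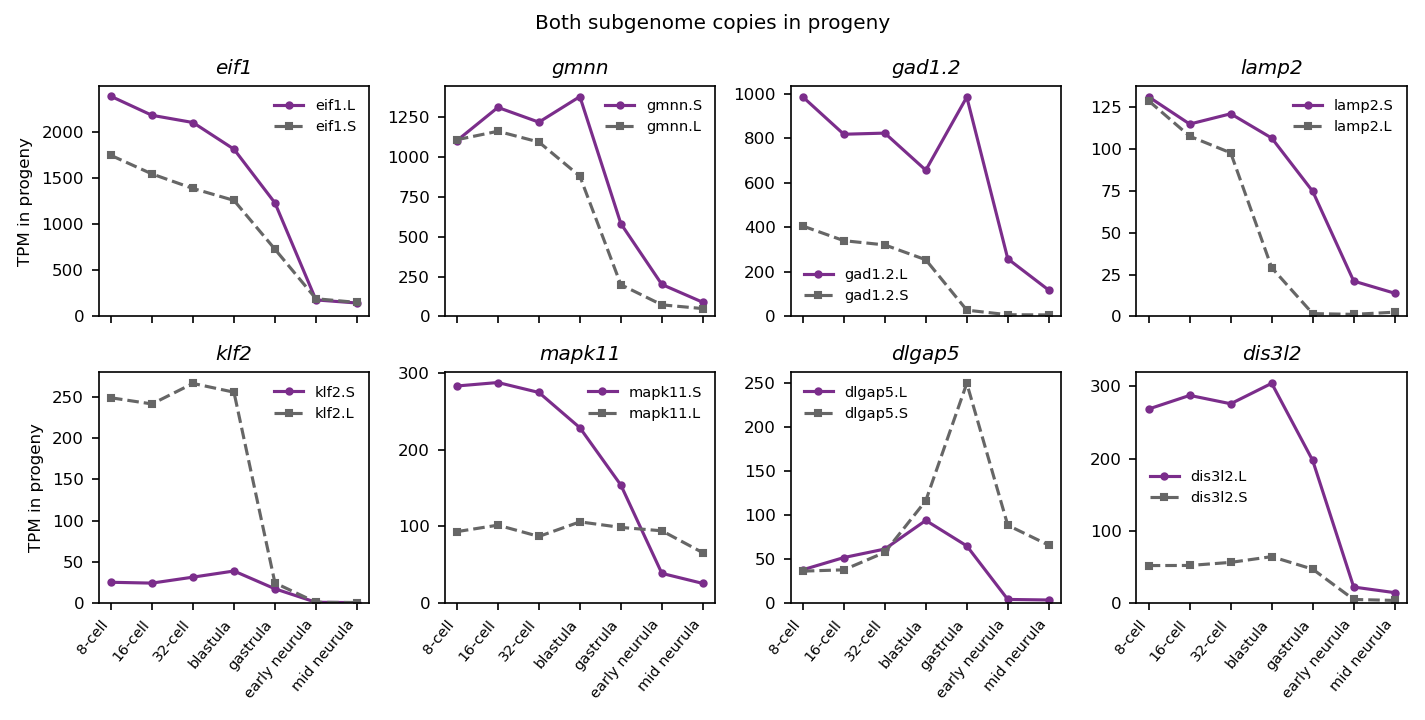
Progeny TPM by stage of both copies of 8 genes, the member in purple with a solid line and the other copy in grey with a dashed line (for dis3l2 both are members), with a scale of its own in each panel. The partner was already low at gastrula for gad1.2 and lamp2, while mapk11.L and dlgap5.S were at 65.6 and 65.7 TPM at mid neurula. At gastrula klf2.L was far below its 8-cell level but still above klf2.S.

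The members that fell least or most after gastrula in progeny close the range. The 6 smallest falls to early neurula among members with a symbol were in gmnn.S, ociad2.L, arl5c.L, best2.L, serpinf2.L and rab40b.S. The message of ociad2.L read 339, 333, 292, 235, 216, 60.8 and 17.5 TPM in explants and 345, 295, 277, 223, 204, 67.7 and 21.8 TPM in progeny, and it was 2-fold down again from early to mid neurula in both tissues. The 6 largest were in bmp7.2.L, vegt.S, tdgf1.3.L, tdgf1.3.S, snx2.L and rnf34.L. At mid neurula 5 members were above 100 TPM in explants, eif1.L, ctsb.L, gad1.2.L, cetn3.S and fxyd3.S, and 3 in progeny, eif1.L, ctsb.L and gad1.2.L. Under 1 TPM at mid neurula were 17 members in explants and 24 in progeny.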

How the data were processed

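The authors deposited 2 tables, 1 for explants and 1 for progeny, with 7 TPM columns each, 1 per stage, per the file headers. TPM was computed before deposit, with the 3 samples of each group in 1 column, and how they were joined is not stated. Per the submitters' processing notes the tools were Bowtie2, TopHat, Cufflinks and Cuffdiff. No genome build is given in the sources used here. Columns sum to between 995987 and 999092 TPM, and the tables were scaled separately, so every explant and progeny difference sets 2 scales side by side. TPM keeps no depth, so counting error is unknown.

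Rows were selected and compared with Python 3.11.15, pandas 2.3.3 and numpy 2.4.6, and plotted with matplotlib 3.10.9. Differences are of log2(TPM + 1), which understates the change of low rows, and were called at 2-fold. Background shares between the tissues cover the 7580 rows with 20 TPM or more at 8-cell in progeny and, from gastrula on, also the 26351 rows reaching 1 TPM in any column. Those between stages cover rows with 20 TPM or more at 8-cell in the same tissue (7037 in explants, 7580 in progeny). The code of the selection was checked on simulated rows built to meet or to miss the rule. That check covers the code alone and not measurement noise. The members, the 22 functional lists and the 6 marker lists were chosen with earlier results of these data known. Genes were named by rank among members with a symbol: the 12 highest at 8-cell, the 8 highest and 4 lowest shares kept at gastrula, the 8 highest and 8 lowest differences of the tissues at mid neurula, up to 8 homeolog pairs with both copies members and 8 with 1, up to 5 per list, 3 on each side of each threshold, and the 6 smallest and 6 largest falls to early neurula. Rows named outside these ranks are set lists of up to 15 rows or were picked after their values were seen. No sequence or coordinate was used. Results for some members are not reported here.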

Additional observations from a re-analysis of the deposited data

Results flagged for a closer look

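The message of vegt.L moved in opposite directions in the 2 tissues between the 16-cell stage and gastrula. Its log2(TPM + 1) changed by -1.12 in explants, where it was at 72.8 TPM at gastrula and 159.6 TPM at 16-cell. It changed by 1.37 in progeny, where it was at 423 TPM at gastrula and 163 TPM at 16-cell. Each change is past 2-fold. The difference was not tested, since each tissue and stage has 1 pooled value.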

How the results depend on the processing

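No paired analysis was possible because each group is 1 pooled column without a replicate number, and for the same reason no replicate could be left out. The rule found 171 members, but 100 with a minimum of 50 TPM at 8-cell, 64 when 0.75 of the 8-cell level had to remain at gastrula and 52 when the fall had to be 16-fold. A pseudocount of 0.1 gave 201, median-of-ratios scaling 205 and homeologs summed 118. The share falling 8-fold in explants was 60.2%, against 68.8% with median-of-ratios scaling, 71.4% with the 16-cell column as the early level and 70.8% for the same members with the explant 16-cell column, an alternative chosen after seeing the data. The share keeping 0.5 of the level in explants was 91.2%, against 70.2% with median-of-ratios scaling, and 82.8% when 0.75 was asked. The whole rule was met in explants by 47.4%, against 37.5% with 0.75, 63.4% with the 16-cell column and 61.4% with the explant 16-cell column. All members (100%) of the 16-fold rule were 2-fold down in explants from gastrula to early and to mid neurula, against 97.7% and 97.1%. With the minimum of 50 TPM, 0% were higher in explants at gastrula, against 3.51%. Lower in explants were 1.56% at early neurula with 0.75, against 4.09%, and 0% at mid neurula with 0.75 or with the 16-fold rule, against 1.17%. With 0.75, 7.81% rose 2-fold from 8-cell to gastrula in progeny, against 2.92%, and 26.7% of partner homeologs were members, against 15.8%. The cause was not tested. Pairs have no value with homeologs summed. Of 119 such values 100 stayed close to the reported one. Close meant within 1.5-fold for the count of members and inside the exact binomial 95% interval around the reported value for shares. That interval treats members as independent, which was not tested. The share 2-fold down in progeny from gastrula to early neurula was 100% under every setting, which adds to the tally. Of 272 values for single members, 268 kept their call and 0 reversed. Unknown depth limits the low values at the neurula stages most.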
